A study of Mus musculus with 12 samples.

Results

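The translation initiation and elongation factors of the mouse were taken as all genes of the deposited table whose symbol begins with Eif or Eef and a digit, leaving out the X- and Y-linked eIF2 gamma genes Eif2s3x and Eif2s3y and pseudogene symbols. The rule found 87 of 56748 genes. It used no measured value. Of these genes, 17 had 0 reads in every library, 69 passed a filter of a mean of at least 1 normalised read in one group and were tested, and 62 averaged at least 10 reads in both kinds of library. The 18 genes that were not tested were 17 multi-copy genes named after Eif1ad, of which 16 had no read and Eif1ad13 at most 1, and Eif2c5 with no read.

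Translation begins when eIF2, bound to GTP and the initiator tRNA, joins the small ribosomal subunit with eIF1, eIF1A and eIF3, and eIF4F (the cap-binding eIF4E, the scaffold eIF4G and the helicase eIF4A) brings the mRNA. The exchange factor eIF2B recharges eIF2, and stress kinases that phosphorylate eIF2alpha block this step, while the eIF4E-binding proteins block eIF4F assembly under the control of TORC1. Elongation is carried out by eEF1A, which delivers aminoacyl-tRNA, and eEF2, which moves the ribosome along. Rods renew part of their outer segment daily, so that their protein synthesis is continuous.

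RNA was measured in rods and in whole retina of 2 genotypes with 3 libraries per group, 12 in all. Control mice were RiboTag;Pkm2fl/+;i75-Rod-Cre, with 1 floxed allele of Pkm2 and therefore heterozygous in rods, and knockout mice (Pkm2 Rodko) were RiboTag;Pkm2fl/fl;i75-Rod-Cre, with 2 floxed alleles. Every mouse thus carried the tagged ribosome and the rod-specific Cre, and no group lacked Cre. For Rod-TRAP (called rods here), HA-tagged ribosomes were pulled down from retinas of mice perfused with cycloheximide, and the lysate before the pull-down is called retina. The age is 2 weeks in the series text and 2 months in the methods, and both genotypes were littermates. Nothing in the labels says that the libraries came from separate animals, so p-values measure the spread between these libraries.

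Libraries held 13458890 to 22790074 reads on genes. Pkm, whose reads cover PKM1 and PKM2 together, had 40688, 69974 and 44227 reads in control rods against 23429, 21040 and 28084 in knockout rods, as the labels say. All 20 rod markers were higher in rods than in retina, while Müller glia, amacrine and ganglion cell markers were at 11.6 to 16.3% of their summed retina level in rods. Bipolar markers were at 41.9 and 43.7% (controls and knockouts), cone markers at 73.8 and 67.1% and the 6 horizontal cell markers at 145 and 156%. Gene by gene, 17 of 19 bipolar and 5 of 6 horizontal cell markers were lower in rods, with median log2 differences of -2.77 and -1.79. In each list 1 gene was higher, at 0.92 and 1.29, so these sums do not stand for most genes of their lists. The Y-linked Eif2s3y had 0 reads in 2 of 3 control libraries of each fraction and 63 to 328 in the other libraries, so the sexes were not balanced between the genotypes.

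The factor mRNAs took up 1.05% ± 0.0135 (SD, n = 6) of reads in rods and 1.10% ± 0.0225 in retina. A few genes held most of these reads. Eif4g2, a scaffold that lacks the eIF4E-binding site, held 18.9% of the factor reads in rods and 14.0% in retina. Eef1a1, the common form of eEF1A, held 16.7% in rods and 21.5% in retina, and Eef2 held 13.9% and 14.5%. By role, the eIF4 factors made up 36.9% ± 0.813 of the factor reads in rods and 29.5% ± 0.474 in retina, whereas the eEF1 complex made up 20.2% ± 0.372 in rods and 27.7% ± 0.695 in retina. No test was run on these shares. The sum itself had no direction that held: the rods minus retina difference was -0.0543 percentage points, but 0.00749 without the member with the most reads and 0.371 on TMM-scaled library sizes.

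Levels are given in CPM, reads per 1000000 of a library size scaled by TMM (trimmed mean of M values). Per kilobase of exon, the order of levels was led by the elongation factors in both fractions. Eef1a1 stood at 856 ± 20.9 CPM per kb in rods and 781 ± 41.8 in retina (SD, n = 6). Eef2 followed at 533 ± 26.3 and 394 ± 16.5, Eif1, which guards start codon choice, at 257 ± 24.3 and 162 ± 10.3, and Eif4g2 at 238 ± 12.1 and 125 ± 4.31. The spreads of Eif1 and Eif4g2 overlapped in rods. In retina the fifth was Eef1a2, the neuronal and muscle form of eEF1A, at 92.9 ± 2.22, next to Eef1g at 92.4 ± 3.43, whereas in rods Eef1a2 stood at 9.81 ± 2.67.

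The first question the design poses of these genes is how rods differ from whole retina, itself rich in rods. Differences were taken on log2(CPM + 1), with libraries scaled by TMM over all 12, and tested with limma over 25584 genes with Benjamini-Hochberg adjustment. By this measure 47 members were higher in rods, against a background of 27.4% of all genes, 7 were lower, against 40%, and 15 did not pass. The 6 rod libraries did not overlap the 6 retina libraries in 51 members, higher in 46 (background 21.4%) and lower in 5 (27.9%). The median over the 69 members was 0.48, and over all genes tested -0.07. In bulk libraries, fewer cells of a type and less RNA per cell cannot be told apart. The rod libraries hold RNA bound to tagged ribosomes, and the retina libraries hold RNA of the lysate before the pull-down. Differences in ribosome binding or in the pull-down therefore cannot be told apart from differences in mRNA level between rods and other cells.

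These directions depended on how the fractions were put on a common scale, because rods and retina differ in composition. Among 11264 genes with at least 100 reads on average the median was 0.23 by TMM and -0.31 by total reads, and the 61 members in that class had medians of 0.57 and 0.01. Members thus lay above the median of well measured genes by both scales, but by total reads 21 were higher and 27 lower. Under all 4 scalings (TMM, RLE, total reads and the deposited values), 18 members were higher (background 9.9%), 7 were lower (40.3%) and 44 had no call that held under all 4. The deposited values were scaled within each fraction, so they are not a common scale and served only as a further hurdle. That hurdle set the list of higher members, since the deposited values alone called the same 18 higher. Eif2b5, Eif3c and Eif3j2 were higher by TMM, RLE and total reads (limma adjusted p by total reads 0.016, 0.021 and 0.031). They missed the call only by the deposited values (limma adjusted p 0.070, 0.061 and 0.063). Below, a gene is called higher or lower in rods only if it was so under all 4, and other values are on the TMM scale.

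**Figure D1:**
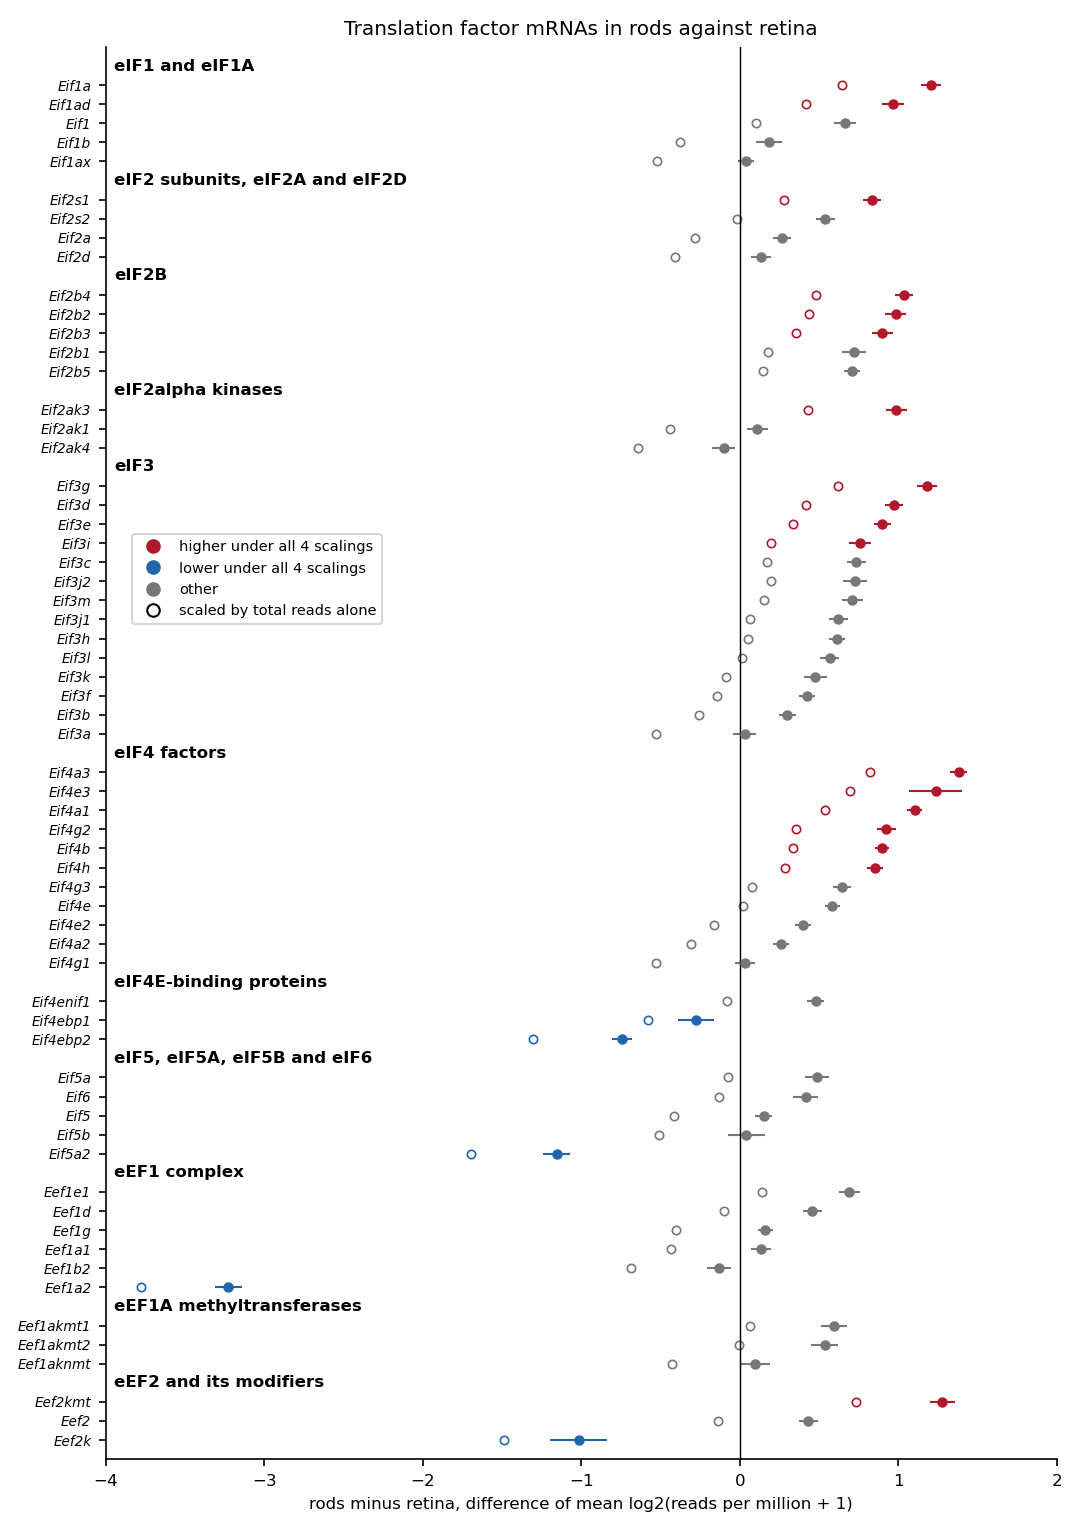
Difference of mean log2(CPM + 1) between rods and retina for the 62 members with at least 10 reads on average in each fraction, grouped by role. Filled points are TMM-scaled with their SE and open points are scaled by total reads. Red and blue mark the members that were higher or lower under all 4 scalings. The other members change side, lose the call or had none, while Eef1a2, at -3.23, lies far to the left of the rest.

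The pair Eef1a1 (ENSMUSG00000037742) and Eef1a2 (ENSMUSG00000016349) showed the widest contrast. Eef1a2 ranged from 12.6 to 26.6 CPM in the 6 rod libraries, with a median of 22.1, and from 190.1 to 202 in the 6 retina libraries, with a median of 191. The libraries did not overlap. Its level was 9.48-fold lower in rods, a log2 difference of -3.23 ± 0.09 (SE, limma adjusted p = 6.5e-13), which put it at percentile 1.13 of 14173 genes with at least 10 reads in each fraction. Rod libraries held 0.106 of its retina level, beside 11.6 to 16.3% for the summed amacrine, Müller glia and ganglion cell markers. How much of its rod reads came from other cells was not tested. Eef1a1, by contrast, ranged from 2079 to 2207 in rods and from 1841 to 2138 in retina, with overlap (log2 0.13 ± 0.06, limma adjusted p = 0.067). Its sign turned under total reads, at -0.43. With same-numbered rod and retina libraries as pairs, the adjusted p of Eef1a1 was 0.039.

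The other parts of the eEF1 complex had smaller differences than Eef1a2. Eef1e1, a scaffold of the tRNA synthetase complex, had a difference of 0.69, Eef1d, a nucleotide exchange subunit, 0.46, Eef1g 0.16 and Eef1b2 -0.13, and none held under all 4 scalings. The share of the first gene within a pair of paralogues does not depend on the scaling between libraries. Eef1a1 made up 98.7 to 99.4% of Eef1a1 plus Eef1a2 reads in rods and 90.6 to 91.6% in retina. That is a 10.7-fold difference in the ratio, and the exact two-sided permutation test of 6 against 6 libraries gave p = 0.0022, the smallest it can give (0.0036 after adjustment over 10 pairs). The difference in log2 ratio was 3.07 in controls and 3.78 in knockouts.

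To set the letters of paralogues with unequal differences side by side, the 250 bases before the annotated start are shown for this pair and for the next pair, Eif4a1 and Eif4a2, from RefSeq on GRCm38.p6. That build differs from the GRCm39 of the submitters, so the stretches serve as sequence context and not as positions of reads. Eef1a1 is chr9:78481725-78481974 on the minus strand, Eef1a2 chr2:181157016-181157265 on the minus strand, Eif4a1 chr11:69672424-69672673 on the minus strand and Eif4a2 chr16:23107218-23107467 on the plus strand. Capitals mark matches to the motifs named after the sequences.
Eef1a1: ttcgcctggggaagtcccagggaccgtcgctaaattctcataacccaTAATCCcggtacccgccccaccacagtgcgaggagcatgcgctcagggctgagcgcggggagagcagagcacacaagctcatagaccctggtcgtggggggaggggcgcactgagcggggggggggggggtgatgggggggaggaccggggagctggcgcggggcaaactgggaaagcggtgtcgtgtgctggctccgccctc
Eef1a2: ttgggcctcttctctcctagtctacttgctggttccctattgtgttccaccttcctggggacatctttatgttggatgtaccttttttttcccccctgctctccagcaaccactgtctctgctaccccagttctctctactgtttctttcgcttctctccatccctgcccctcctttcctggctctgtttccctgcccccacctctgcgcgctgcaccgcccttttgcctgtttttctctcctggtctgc
Eif4a1: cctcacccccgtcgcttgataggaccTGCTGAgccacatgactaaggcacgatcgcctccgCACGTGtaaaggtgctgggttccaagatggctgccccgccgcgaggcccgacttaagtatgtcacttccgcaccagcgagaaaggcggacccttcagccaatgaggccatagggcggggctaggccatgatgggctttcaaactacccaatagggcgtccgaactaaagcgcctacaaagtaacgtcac
Eif4a2: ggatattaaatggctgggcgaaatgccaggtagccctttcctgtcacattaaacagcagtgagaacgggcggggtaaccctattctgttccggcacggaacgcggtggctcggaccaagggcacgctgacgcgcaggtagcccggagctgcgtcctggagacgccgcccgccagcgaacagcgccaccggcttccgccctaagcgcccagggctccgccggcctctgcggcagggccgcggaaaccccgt

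Motifs were looked for on both strands in those 250 bases of all 32851 starts in the table, of which 68 belonged to 53 of the 87 members. The Crx-type TAATCC, bound by the photoreceptor factor Crx, was in 8.82% of member starts and 6.25% of all starts, including Eef1a1 at 203 to 198 bases before the start. TGCTGA, a half-site of the rod factor Nrl, was in 10.3% and 16.1%, including Eif4a1. CACGTG was in 22.1% of member starts and 6.02% of all, CCGGAAG in 17.6% and 6.91%, TATAAA in 5.88% and 12.4%, and TGACGTCA in 0% and 1.55%. The median GC content of the stretches was 61.2% in members and 52.4% in all. No match was found in the stretches of Eef1a2 and Eif4a2. A match is a description of letters only.

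The helicases of eIF4F shifted towards Eif4a1. Eif4a1 ranged from 348 to 381 CPM in rods (median 361) and from 156 to 179 in retina (median 169), without overlap, and was 2.16-fold higher in rods (log2 1.10 ± 0.05, limma adjusted p = 3.8e-11). Eif4a2, a close paralogue common in neurons, ranged from 335 to 386 in rods and 277 to 334 in retina, a log2 difference of 0.26 that turned to -0.31 by total reads. Eif4a1 therefore held 49.3 to 51.4% of the reads of the pair in rods and 34.3 to 36.5% in retina (log2 ratio difference 0.85, exact permutation p = 0.0022). Reads on the left-out pseudogene Eif4a-ps4 amounted to 18.2 to 19.9% of Eif4a1 reads in rods and 16.8 to 20.5% in retina. How reads that match both were counted is not given in the sources used here.

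Eif4a3, the helicase of the exon junction complex, had the highest difference of all members. Its rod libraries ran from 121 to 139 CPM (median 128) and its retina libraries from 45.6 to 52.2 (median 49.0). The 2.64-fold difference (log2 1.38 ± 0.05, limma adjusted p = 1.3e-11) put it at percentile 98.3 of the 14173 genes. Its copies Eif4a3l1 and Eif4a3l2 had means under 1 CPM in both fractions, and reads shared with Eif4a3 cannot be told apart from their own.

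Both partners that stimulate the helicase were higher in rods. Eif4b ran from 445 to 468 CPM in rods (median 452) and 226 to 261 in retina (median 243), with a log2 difference of 0.90 ± 0.05. Eif4h ran from 385 to 449 in rods (median 416) and 220.4 to 239.8 in retina (median 230.3), with 0.85 ± 0.05. Neither gene's fractions overlapped.

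The eIF4G family had unequal differences. Eif4g2, the member outside eIF4F, ranged from 2281 to 2638 CPM in rods (median 2381) and from 1204 to 1332 in retina (median 1272), a 1.90-fold difference (log2 0.93 ± 0.06, limma adjusted p = 2.3e-09). Eif4g1, the canonical scaffold, ranged from 104 to 139 in rods and 108 to 119.5 in retina, with overlap and a log2 difference of 0.03. Eif4g3, its paralogue, showed 0.64, which fell to 0.08 by total reads. Within pairs, Eif4g1 held 35.2% ± 1.71 of Eif4g1 plus Eif4g3 reads in rods and 45.4% ± 1.48 in retina. Of Eif4g1 plus Eif4g2 reads it held 4.61% ± 0.491 and 8.20% ± 0.369. Both pairs were without overlap (exact permutation p = 0.0022, adjusted 0.0036).

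**Figure D2:**
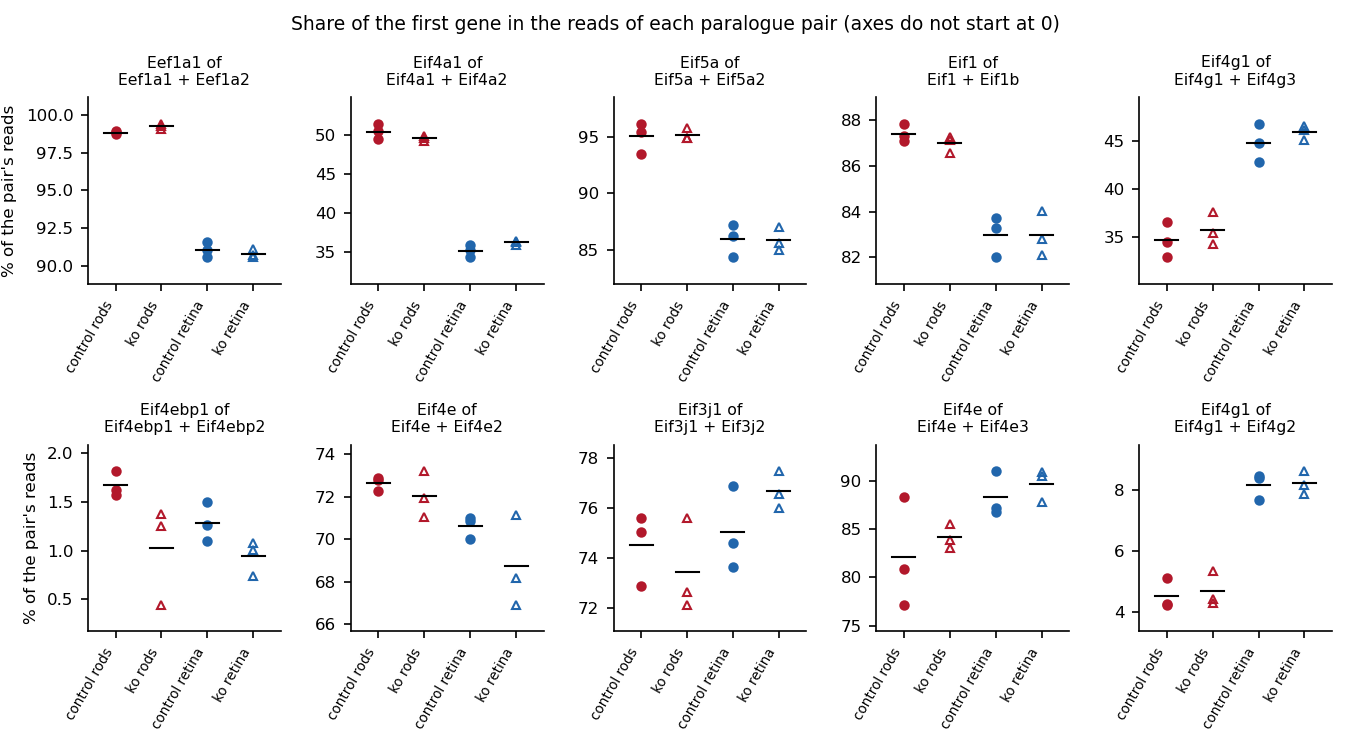
Percent of the reads of each pair that fell on the first gene, in each of the 12 libraries (circles, control; triangles, knockout; red, rods; blue, retina), with the group mean as a line. Rod and retina libraries are separate in 6 of 10 pairs, with Eef1a1 at 98.7 to 99.4% in rods and 90.6 to 91.6% in retina.

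Of the cap-binding proteins, Eif4e3 was higher in rods, with 20.05 to 44.2 CPM (median 30.9) against 9.35 to 15.7 in retina (median 12.3). Its difference of 1.24 ± 0.17 had the widest error of the members called higher, and control library 2 was the lowest of the rod libraries. Eif4e, the main cap-binding protein, had 0.59, and Eif4e2, a translational repressor, 0.40, and neither held under all 4 scalings. The log2 ratio of Eif4e to Eif4e3 was lower in rods by 0.71 (exact permutation, adjusted p = 0.0108), and that of Eif4e to Eif4e2 was 0.18 higher (adjusted p = 0.0062), both with overlapping libraries.

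Among the genes of the eIF4E-binding role, 3 of 4 tested had a lower call and Eif4enif1, the eIF4E transporter, went the other way (0.48 on the TMM scale, limma adjusted p = 9.0e-07, and -0.08 by total reads). Eif4ebp2, a translational repressor common in neurons, ran from 64.9 to 87.1 CPM in rods (median 72.8) and 117 to 131 in retina (median 127). The 1.68-fold lower level (log2 -0.74 ± 0.06, limma adjusted p = 6.9e-08) came without overlap. Eif4ebp1 was low in both, at 0.390 to 1.32 and 0.945 to 1.796 with overlap (-0.28, limma adjusted p = 0.042). That call was lost with a pseudocount of 0.1 (adjusted p = 0.074) and when each of 8 of the 12 libraries was left out in turn (adjusted p from 0.054 to 0.12). Eif4ebp3 had 0 to 1 reads per rod library and 1 to 6 per retina library. It passed the filter through retina alone, so its place among the 7 lower members supports nothing. The share of Eif4ebp1 in the pair with Eif4ebp2 was 1.35% ± 0.483 in rods and 1.11% ± 0.253 in retina, not past the test (exact permutation, adjusted p = 0.55).

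The scanning and start-site factors also divided between paralogues. Eif1a, one of the eIF1A genes, ran from 134 to 156 CPM in rods (median 146) and 55.1 to 69.0 in retina (median 61.8), without overlap (2.33-fold, log2 1.21 ± 0.06, limma adjusted p = 1.9e-10). Its X-linked paralogue Eif1ax ran from 112 to 130.3 in rods and 111 to 129.7 in retina and did not differ beyond its spread (0.04 ± 0.05). Eif1 had 0.67 and Eif1b 0.18, and Eif1 made up 87.2% ± 0.409 of the pair's reads in rods and 83.0% ± 0.836 in retina (exact permutation, adjusted p = 0.0036). Eif1b passed the test when same-numbered libraries were paired (limma adjusted p = 0.014).

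All 5 subunits of eIF2B were above 0 on the TMM scale and passed the test, and 3 held under all 4 scalings. Eif2b4, the delta subunit, ran from 54.4 to 61.9 CPM in rods (median 58.6) and 24.0 to 30.5 in retina (median 28.7), a 2.08-fold difference (log2 1.04 ± 0.06, limma adjusted p = 3.4e-10). Eif2b2 had 0.99 and Eif2b3 0.90. The alpha subunit Eif2b1, at 0.72, and the catalytic epsilon subunit Eif2b5, at 0.71, lost the call by the deposited values (0.15 and 0.12). The rod and retina libraries did not overlap for any of the 5.

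Of eIF2 itself, Eif2s1, the alpha subunit that carries the regulatory phosphorylation site, was higher in rods (50.1 to 54.2 against 27.2 to 32.0 CPM, log2 0.83 ± 0.06). Eif2s2, the beta subunit, had 0.54. Eif2a and Eif2d, grouped in the same role here but not subunits of eIF2, had 0.27 and 0.13. Eif2s2, Eif2a and Eif2d turned negative by total reads.

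The 4 kinases that phosphorylate eIF2alpha differed from one another. Eif2ak3 (PERK), which senses stress in the endoplasmic reticulum, ran from 66.2 to 79.5 CPM in rods (median 70.8) and 32.9 to 38.0 in retina (median 36.5), and was 2.02-fold higher (log2 0.99 ± 0.06, limma adjusted p = 2.5e-09). Eif2ak2 (PKR), which senses double-stranded RNA, had 0.226 to 0.907 in rods (median 0.422) and 3.70 to 6.07 in retina (median 5.07), a 10.1-fold lower level (limma adjusted p = 3.3e-09). The rod value rested on 3 to 10 reads per library, and the log2 difference of -2.01 understates the fold because of the pseudocount. Eif2ak1 (HRI) and Eif2ak4 (GCN2) did not pass, at 0.11 and -0.10.

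In eIF3, the large scaffold of the preinitiation complex, 13 of 14 members passed on the TMM scale, from 0.30 in Eif3b to 1.18 in Eif3g, and 4 held under all 4 scalings. Eif3g, an RNA-binding subunit, ran from 126 to 157 CPM in rods (median 129.9) and 56.4 to 62.1 in retina (median 60.5), 2.29-fold higher (limma adjusted p = 3.2e-10). Eif3d, a cap-binding subunit, had 0.98, Eif3e 0.90 and Eif3i 0.76. Eif3a, the core subunit, had 68.7 to 104 in rods and 69.4 to 82.1 in retina, which overlap (0.03 ± 0.07). Subunits of one complex thus had unequal differences, and by total reads Eif3a was again the lowest of the 14 at -0.53 and Eif3g the highest at 0.62. Eif3j1 and its near copy Eif3j2 kept a ratio that did not pass the test (log2 -0.14, exact permutation, adjusted p = 0.075), and reads may have been split between them.

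The late factors were split as eEF1A was. Eif5a2, the second form of the hypusinated factor eIF5A, ran from 13.2 to 17.9 CPM in rods (median 14.3) and 30.8 to 39.8 in retina (median 33.0), 2.31-fold lower (log2 -1.16 ± 0.09, limma adjusted p = 1.1e-08). Eif5a had 0.49 on the TMM scale and -0.08 by total reads. Eif5a made up 95.1% ± 0.929 of the pair in rods and 85.9% ± 1.14 in retina (log2 ratio difference 1.70, exact permutation p = 0.0022). Eif5, the GTPase activator of eIF2, had 0.15, Eif5b, which joins the subunits, 0.04 and Eif6, which keeps them apart, 0.42.

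The enzymes that modify eEF2 went opposite ways. Eef2kmt, its lysine methyltransferase, ran from 38.6 to 49.6 CPM in rods (median 42.1) and 15.8 to 19.8 in retina (median 16.2), 2.51-fold higher (log2 1.28 ± 0.08, limma adjusted p = 1.1e-09). Eef2k, the kinase that inactivates eEF2, ran from 1.91 to 5.08 in rods (median 3.55) and 5.78 to 10.4 in retina (median 7.80), 2.29-fold lower (log2 -1.02 ± 0.18, limma adjusted p = 0.00013). Both were without overlap, although control library 2 was the lowest for Eef2k in both fractions. Eef2 had 0.43 and -0.13 by total reads. Of the eEF1A methyltransferases none held under all 4 scalings, with 0.59 in Eef1akmt1 as the highest difference and -0.11 in Eef1akmt3, which had under 1 CPM, as the lowest.

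**Figure D3:**
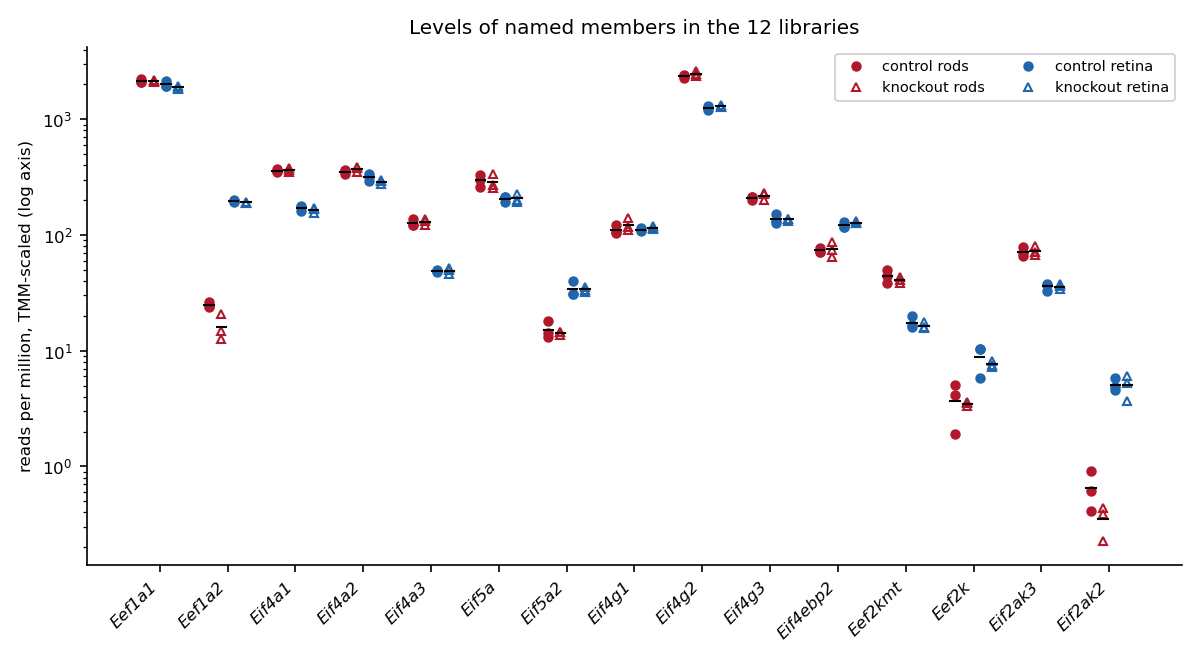
CPM (TMM-scaled, log axis) of 15 named members in each library (circles, control; triangles, knockout; red, rods; blue, retina), with group means as lines. Eef1a2 lies at 12.6 to 26.6 in rods and at 190.1 to 202 in retina, and Eif2ak2 is under 1 in every rod library.

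Pathway genes beside the factors were read against the same background. Of 8 termination and recycling genes 5 were higher on the TMM scale and 1 lower, with Gspt1 (the release factor eRF3a) at 1.03 and its paralogue Gspt2 at -0.60. Of 12 partners of the poly(A) tail and of eIF4E, 5 were higher and 5 lower, among them Paip1 at 0.90 and Mknk2, a kinase of eIF4E, at -1.56. In the TOR complex 1 list, 6 of 12 were higher and 2 lower, with Mlst8 at 0.64, Mtor at 0.00 and the inhibitor Deptor at -1.43. In the integrated stress response list, 6 of 15 were higher and 7 lower, with Atf4 at 1.08 and Psat1, a serine synthesis enzyme known in glia, at -2.42. Of 10 mitochondrial translation factors 8 were higher and 1 lower, with Gfm1 at 1.17 and Guf1 at -0.32. Both enzymes that make hypusine on eIF5A passed on the TMM scale, Dhps at 0.93 and Dohh at 0.41, and 1 of the 2 held under all 4 scalings. Of 9 other elongation modifiers 5 were higher and none lower by limma. Under all 4 scalings 2, 1, 0, 3, 4, 1 and 2 genes of these lists were higher and 1, 5, 2, 7, 1, 0 and 0 lower, in the order given (backgrounds 9.9% and 40.3% of all genes).

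Members known as 5-prime TOP mRNAs, whose translation follows TORC1, were counted beside the others, and the difference was not tested. For these too, ribosome binding and mRNA level cannot be told apart. On the TMM scale 7 of 11 were higher and 1 lower, with a median of 0.42, and of the 58 other members 40 were higher and 6 lower, with a median of 0.54. Under all 4 scalings 2 of the 11 and 16 of the 58 were higher, and the medians by total reads were -0.14 and 0.02.

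The second question is whether the deletion of Pkm2 in rods moved these mRNAs. In rods, 0 of 66 members tested passed limma on log2(deposited value + 1) with adjustment over 20658 genes (background 0.0194% in either direction), and edgeR and DESeq2 also gave 0. Only Eef1a2 had an unadjusted p under 0.05, against a background of 4.77%. In retina 0 of 68 passed over 25590 genes (background 0.00391%), again 0 by edgeR and DESeq2, and 2 members had an unadjusted p under 0.05 (background 4.18%). The test of the rod effect minus the retina effect also gave 0 members of 69 by all 3 tools, with 4 members at an unadjusted p under 0.05 (background 3.94%). The median genotype difference of the members was 0.03 in rods and -0.02 in retina.

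Eef1a2 had deposited values of 334.5, 376.4 and 338.9 in control rods and 289.9, 180.1 and 211.5 in knockout rods. The knockout libraries were all below the controls, by a log2 difference of -0.65 ± 0.16 (limma adjusted p = 0.93). In retina its values were 4162.1, 4085.1 and 4307.8 in controls and 4063.6, 4118.4 and 4151.6 in knockouts, which overlap (-0.03). The rod effect minus the retina effect was -0.58 (limma adjusted p = 0.99). Leaving out single rod libraries gave -0.84 to -0.50. The libraries with Eif2s3y reads alone gave -0.60, but of the controls these keep only library 3, so that value has no spread among controls.

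No marker of any retinal cell type passed the adjusted limma test between genotypes in rods. The medians of all lists of other cells were below 0, as was Eef1a2, from -0.64 in amacrine to -0.09 in microglia markers. The median genotype difference was -0.64 over 13 amacrine markers, -0.35 over 12 Müller glia markers, -0.36 over 12 ganglion cell markers and -0.30 over 19 bipolar cell markers, and 0.05 over 20 rod markers. At an unadjusted limma p under 0.05, 6, 6, 2 and 8 genes of the first 4 of these lists were lower and 0 of the rod markers (background 4.77% of all genes in either direction). Of the other lists, 3 of 8 endothelial, 1 of 11 cone and 1 of 6 horizontal cell markers were lower. Among pigment epithelium and microglia markers 0 were. The summed amacrine level ran from 137.6 to 196.3 CPM in control rods and from 114.4 to 137.2 in knockout rods. That of Müller glia ran from 639.4 to 809.2 and from 525.4 to 622.8. The bipolar sums overlapped between genotypes (845.6 to 894.6 and 762.6 to 883.7), as did those of ganglion cells (130.0 to 168.1 and 106.6 to 140.2). The horizontal cell sum was 0.05 higher in knockout rods on the log2 scale. The median over the 6 horizontal cell markers was -0.12, with 3 above 0 and 3 below. None of the markers in the amacrine, Müller, ganglion and bipolar lists was at 0 in all rod libraries. Their part in the Eef1a2 difference was not tested.

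Few other members had genotypes that did not overlap, and none of these passed the test. In rods, Eif4ebp1 was lower in all knockout libraries (13.2, 12.9 and 5.5 against 16.7, 17.5 and 18.5), and Eif3j1, Eif3j2, Eif4e2 and Eif2s2 were higher. With Eef1a2 this made 2 members lower and 4 higher, against backgrounds of 5.4% and 4.49%. In retina Eif2b3 had 441.2, 491.3 and 380.0 in controls and 335.5, 364.5 and 336.2 in knockouts (log2 -0.33, limma adjusted p = 0.95). Its values in rods were 470.3, 504.8 and 481.9 against 480.5, 470.6 and 533.9, which overlap. Eef1akmt1, Eif5 and Eif1ax were also lower without overlap in retina, and Eif2b4 and Eef2 higher, so that 4 were lower and 2 higher (backgrounds 4.76% and 4.53%). Eif2s2 in retina overlapped between genotypes (-0.22, limma adjusted p = 0.95).

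**Figure D4:**
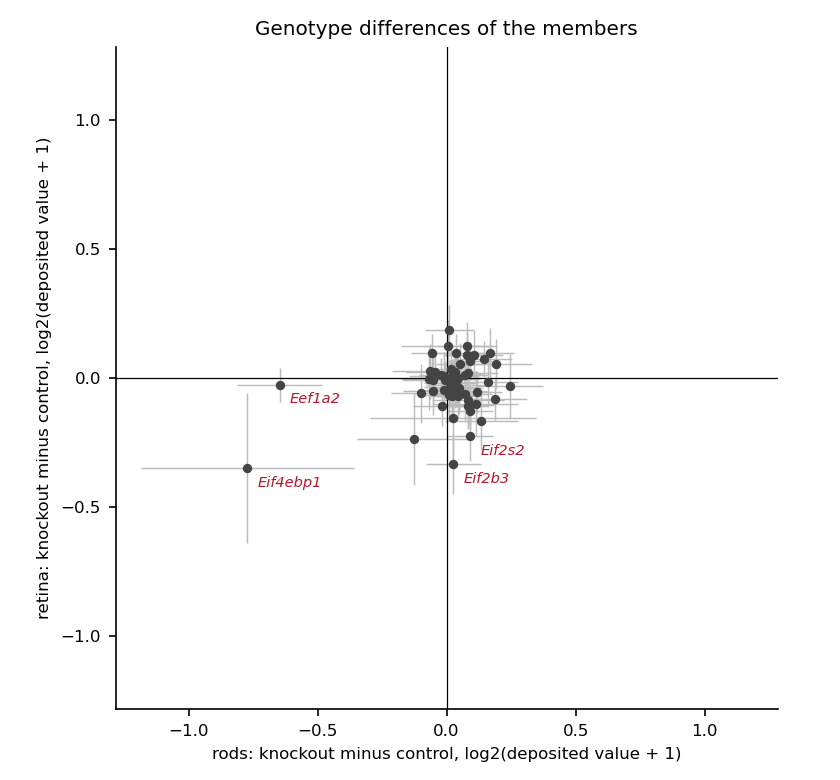
Knockout minus control difference of log2(deposited value + 1) with its SE, in rods (horizontal) and retina (vertical), for 62 members. The differences lie between -0.77 and 0.24 in rods and between -0.35 and 0.19 in retina, and no member passed the adjusted test in either.

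By role, no member of any group passed the adjusted test between genotypes. The medians in rods ran from -0.06 in eEF2 and its modifiers to 0.12 in the eEF1A methyltransferases, and that of the 14 eIF3 members was 0.04. In the integrated stress response list 0 of 14 genes in rods and in the TOR complex 1 list 0 of 12 passed the adjusted test, with 0 and 1 genes at an unadjusted p under 0.05. Paralogue ratios did not separate the genotypes beyond the smallest p that 3 against 3 libraries allow, which is 0.10. The ratio of Eef1a1 to Eef1a2 reached it in rods (log2 difference 0.67), that of Eif4ebp1 to Eif4ebp2 in rods (-0.85) and retina (-0.45), and that of Eif4a1 to Eif4a2 in retina (0.07).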

How the data were processed

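Retinal RNA of 12 libraries (polyA RNA) was sequenced by the authors, in 4 groups of 3. The submitters' processing notes name CASAVA 1.8.2, HISAT2, DESeq2, edgeR and the build GRCm39. The counting tool, its annotation and its strand setting are not given in the sources used here. The deposited values are a normalised signal: the reads of each library over its own size factor (the median of ratios among libraries of the same fraction), rounded to 1 decimal. Dividing by the value of 1 read gave whole reads for 99.997% of values, within a tolerance of 0.0501 in the deposited value. These reads were used for CPM. Columns were matched to samples by title.

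Rods and retina were compared with limma 3.58.1 on log2(TMM CPM + 1) over 12 libraries with 4 group means and a trend, and genotypes with limma on log2(deposited value + 1) within each fraction, with Benjamini-Hochberg adjustment over all genes that reached a mean of 1 or more in some group. The paralogue ratios (with 0.5 reads added) used an exact permutation test. Exon lengths came from an annotation of GRCm38, by gene ID. edgeR 4.0.16 and DESeq2 1.42.0 were run on the recovered reads as alternatives, beside other scalings, pseudocounts, filters and libraries left out. Fits were also run on simulated reads, with a set of genes changed between groups of otherwise equal composition. Since rods and retina differ in composition, that run cannot decide the scale between them. Same-numbered rod and retina libraries deviated together (correlations 0.16 to 0.46 over 9971 genes, all highest for the own number), so they were also compared as pairs. The members and lists were chosen with earlier results of these data known. Members were named where they were in a paralogue pair, had the largest or smallest differences among those past adjusted 0.05, had the extreme difference of their role, or had the smallest unadjusted p between genotypes, and others as parts of their complex. Libraries held 13458890 to 22790074 reads, and each SD is the spread between libraries, not the precision set by this depth.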

Additional observations from a re-analysis of the deposited data

How the results depend on the processing

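The scale between rods and retina was the choice that changed most. The number of members higher in rods was 47 by TMM, 45 by RLE, 21 by total reads and 18 by the deposited values, and 18 were higher under all 4. The number lower was 7, 9, 27 and 28, and it was 4 when 10 reads in every library were required, since fewer genes were then tested. The summed share in rods minus that in retina turned from -0.0543 to 0.371 percentage points on TMM-scaled sizes and to 0.00749 without the member with the most reads. By total reads the log2 difference between rods and retina turned sign in 24 members, and read Eef1a1 -0.43, Eef1akmt2 -0.00251, Eef1aknmt -0.42, Eef1d -0.0969, Eef1g -0.40, Eef2 -0.13, Eif1ax -0.53, Eif1b -0.38, Eif2a -0.28, Eif2ak1 -0.44, Eif2d -0.41, Eif2s2 -0.0167, Eif3a -0.53, Eif3b -0.26, Eif3f -0.14, Eif3k -0.0839, Eif4a2 -0.31, Eif4e2 -0.16, Eif4enif1 -0.0795, Eif4g1 -0.53, Eif5 -0.41, Eif5a -0.0763, Eif5b -0.51, Eif6 -0.13. By the deposited values it turned sign in 26, and read Eef1a1 -0.47, Eef1akmt2 -0.0348, Eef1aknmt -0.49, Eef1d -0.13, Eef1g -0.44, Eef2 -0.17, Eif1ax -0.56, Eif1b -0.41, Eif2a -0.32, Eif2ak1 -0.48, Eif2d -0.46, Eif2s2 -0.0489, Eif3a -0.57, Eif3b -0.29, Eif3f -0.17, Eif3k -0.12, Eif3l -0.0205, Eif4a2 -0.34, Eif4e -0.0101, Eif4e2 -0.19, Eif4enif1 -0.11, Eif4g1 -0.57, Eif5 -0.45, Eif5a -0.11, Eif5b -0.56, Eif6 -0.17. Leaving out 1 library gave 47 to 49 members higher and 6 to 9 lower. With same-numbered rod and retina libraries as pairs, 49 were higher and 8 lower, the calls gained being Eef1a1, Eef1b2 and Eif1b, and no other call changed between rods and retina. The sign-flip test over those pairs put 8 of 10 paralogue ratios under 0.05, as the unpaired test did. In 3 against 3 libraries within a genotype no ratio can pass. Control and knockout libraries of the same number shared only a number (correlations of deviations from -0.34 to 0.18), and with the number as a replicate block 0 members passed between genotypes, as in each other alternative. Alternatives that used only libraries with Eif2s3y reads, or a call under all 4 scalings, were chosen after seeing the data. Of the controls, only library 3 of each fraction has Eif2s3y reads. Depth limits Eif2ak2, Eif4ebp1 and Eif4ebp3, which had at most 24 reads in any rod library. It also limits Eif4a3l1, Eif4a3l2, Eef1akmt3, Eef1akmt4 and Eif4e1b, which had at most 8. Eif4a3l2, with 4 to 7 reads per rod library and 0 to 6 per retina library, was among the 47 higher members on the TMM scale (limma adjusted p = 0.0018). It was also counted among those without overlap.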
